A study of Homo sapiens with 24 samples.

Results

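The Notch pathway was read here through 10 genes: the receptors NOTCH1, NOTCH2 and NOTCH3, the ligands JAG1 and JAG2, and the genes HES1, HES4, HEY1, HEY2 and NRARP, which Notch signalling can switch on. They were taken by name from the authors' table of 28297 Ensembl genes, and all 10 were found there, each in a single row. Transcripts were measured by RNA sequencing in H9 cells, a long-used line of human embryonic stem cells, in 8 groups of 3 libraries. Engineered H9 cells carried optoWnt, a fusion of the light-sensitive protein Cry2 to the intracellular end of the Wnt co-receptor LRP6, joined through a 2A peptide to mCherry, with a puromycin resistance gene. Wild-type H9 cells carried eGFP and a neomycin resistance gene. Engineered monocultures are called Cry2 and wild-type monocultures wt. Engineered (mCherry) and wild-type (GFP) cells were also sorted out of 1:1 co-cultures. Each of these 4 kinds of cells was exposed to light of 0.8 µW/mm2 for 48 h (light) or kept without it (dark), and several wells were pooled for each replicate. Light thus drives Wnt signalling in Cry2 and mCherry cells, while illuminated GFP cells are wild-type neighbours of such cells. The sources used here do not say whether the engineered cells are a single clone.

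Notch receptors sit in the membrane of a receiving cell and are bound by Jagged or Delta-like ligands on a neighbouring cell. Binding lets proteases release the receptor's intracellular part, which joins the DNA-binding protein RBPJ and switches on genes such as the HES and HEY repressors and NRARP, an ankyrin-repeat protein that feeds back on the pathway. Ligands in the same cell as a receptor can also block it. In the vertebrate embryo the pathway runs in the presomitic mesoderm, where Wnt and Notch signals meet in the segmentation clock.

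Since the HES, HEY and NRARP genes are read out through RBPJ, their promoters are shown, 250 bases before to 50 after the RefSeq start (GRCh38.p14), read 5′ to 3′ on the gene's own strand. Capitals mark TGGGAA, the core of the RBPJ site, or TTCCCA, the same letters on the opposite strand. RefSeq promoters were matched for 9 of the 10 genes, all except HEY1.
HES1 (chr3:194135898-194136197, plus strand): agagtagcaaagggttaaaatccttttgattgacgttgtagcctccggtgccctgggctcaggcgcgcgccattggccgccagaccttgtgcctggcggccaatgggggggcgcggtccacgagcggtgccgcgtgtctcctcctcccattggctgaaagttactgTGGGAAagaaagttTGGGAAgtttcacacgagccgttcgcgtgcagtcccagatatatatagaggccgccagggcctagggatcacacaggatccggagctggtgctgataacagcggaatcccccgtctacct
HES4 (chr1:1000048-1000347, minus strand): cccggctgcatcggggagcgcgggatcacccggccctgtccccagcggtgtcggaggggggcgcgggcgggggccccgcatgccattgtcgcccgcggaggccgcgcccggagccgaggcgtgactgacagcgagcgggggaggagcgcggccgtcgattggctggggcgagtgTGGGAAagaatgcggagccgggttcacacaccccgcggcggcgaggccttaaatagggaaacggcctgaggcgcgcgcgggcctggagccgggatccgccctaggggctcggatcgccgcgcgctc
HEY2 (chr6:125749382-125749681, plus strand): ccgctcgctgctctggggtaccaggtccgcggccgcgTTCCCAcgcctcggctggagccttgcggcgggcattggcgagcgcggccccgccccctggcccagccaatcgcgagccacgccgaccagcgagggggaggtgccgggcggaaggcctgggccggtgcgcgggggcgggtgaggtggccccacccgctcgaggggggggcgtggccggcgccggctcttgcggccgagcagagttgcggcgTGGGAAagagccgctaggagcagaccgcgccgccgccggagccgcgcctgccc
NRARP (chr9:137302222-137302521, minus strand): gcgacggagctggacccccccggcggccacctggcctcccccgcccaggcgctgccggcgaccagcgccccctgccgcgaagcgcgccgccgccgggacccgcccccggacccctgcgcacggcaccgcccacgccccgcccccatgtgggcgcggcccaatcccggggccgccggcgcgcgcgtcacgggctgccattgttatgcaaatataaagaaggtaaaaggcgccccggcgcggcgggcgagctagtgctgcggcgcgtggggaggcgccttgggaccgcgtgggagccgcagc
TGGGAA, searched on both strands, occurred in 3 of the 9 promoters and in 8439 of 35116 RefSeq promoters of the same length. HES1 held it at positions -84 and -70 and HES4 at -76, counted from the start of transcription. HEY2 held it at -213 and at -3, both times inside the longer CGTGGGAA, which 0.826% of all promoters held and which was in none of the other 8. The window of NRARP, like those of the receptors and ligands, did not hold these letters. CTTTGA, the core of the site for the Wnt effectors TCF and LEF, was in none of the 9 promoters and in 12.9% of all. CACNAG, the N-box to which HES proteins bind, was in 5 of the 9 (4 times in HES1, and in NOTCH1, NOTCH2, NOTCH3 and NRARP) and in 38.0% of all promoters. A match is a match of letters and not a measured binding site.

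Between 28211236 and 56620471 reads per library were assigned to Ensembl genes. In monoculture the dark libraries (28211236 to 34278319 reads) were all shallower than the illuminated ones (45748680 to 54689953), so depth and light cannot be told apart there, whereas the co-culture groups overlapped in depth. Library c of mCherry light (31763812 reads) and library 2 of wt light stood apart in several of the 10 genes, and library a of mCherry light was the farthest from the others of its group over all genes. Library 1 of wt dark had a GC content of 33.73% and library 3 of Cry2 dark an RNA integrity number of 7.6. The sorts held apart: eGFP in mCherry light was 0.176% of its mean in GFP light, and the fusion in GFP light 0.694% of its mean in mCherry light, a feature that holds LRP6 sequence and had 218.9 to 426.5 in the wt libraries, which lack it. The label of stem cells held for the dark and wild-type groups, in which the summed level of 7 pluripotency markers was between 310503 and 388722, while Cry2 light (73721 to 75325) and mCherry light (71794 to 92690) were far below. The 6 markers of the primitive streak and early mesoderm (TBXT, MIXL1, EOMES, MESP1, TBX6, MSGN1), all with reads, summed to 129427 to 132081 in Cry2 light and 118239 to 138661 in mCherry light, against 193.5 to 244.6 in Cry2 dark and 180.6 to 193.8 in mCherry dark. The 3 markers of definitive endoderm summed to 9286.5 to 9583.5 in Cry2 light, against 24.8 to 47.6 in Cry2 dark, and nearly all of the sum in Cry2 light was CXCR4 (mean 9397), with means of 2.06 for SOX17 and 1.41 for FOXA2. The 6 of endothelium summed to 433 to 495 in Cry2 light, against 619 to 742 in Cry2 dark. CDH5, TIE1 and ERG fell, SOX18 rose (means 42.5 and 4.01), TEK did not pass and PECAM1 was not tested. The part of these markers' cells in the changes given for engineered cells was not tested. In bulk samples a change in the share of cells that express a gene and a change in its RNA per cell cannot be told apart.

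Under light, engineered cells had more NOTCH1, HES1 and HEY2 and less NOTCH3, JAG1, JAG2 and NRARP than in the dark, in monoculture and in sorted co-culture. The rise of HES1 in co-culture was small in libraries a and b of mCherry light and large in library c. NOTCH1 was 2.65-fold and 3.38-fold higher, HEY2 4.31-fold and 4.69-fold higher. JAG1 was 2.73-fold and 2.51-fold lower, and NRARP 4.67-fold and 4.34-fold lower. In each culture 8 of the 10 genes passed the test, 4 higher and 4 lower, against 58.4% of all 19444 genes tested in monoculture (28.1% higher, 30.4% lower) and 55.9% of 19436 in co-culture (27.2% higher, 28.7% lower). The number of calls is thus read against a background in which most genes were called. The median log2 change of the 10 was -0.14 in Cry2 and -0.05 in mCherry cells, against -0.01 over all genes in both, and the median size regardless of sign was 1.43 and 1.21, against 0.51 and 0.53. All values are the authors' normalised read counts. Log2 changes are of the normalised count plus 1, ± SE, and adjusted p-values are from limma with the Benjamini-Hochberg adjustment over all genes tested, called under 0.05.

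**Figure D1:**
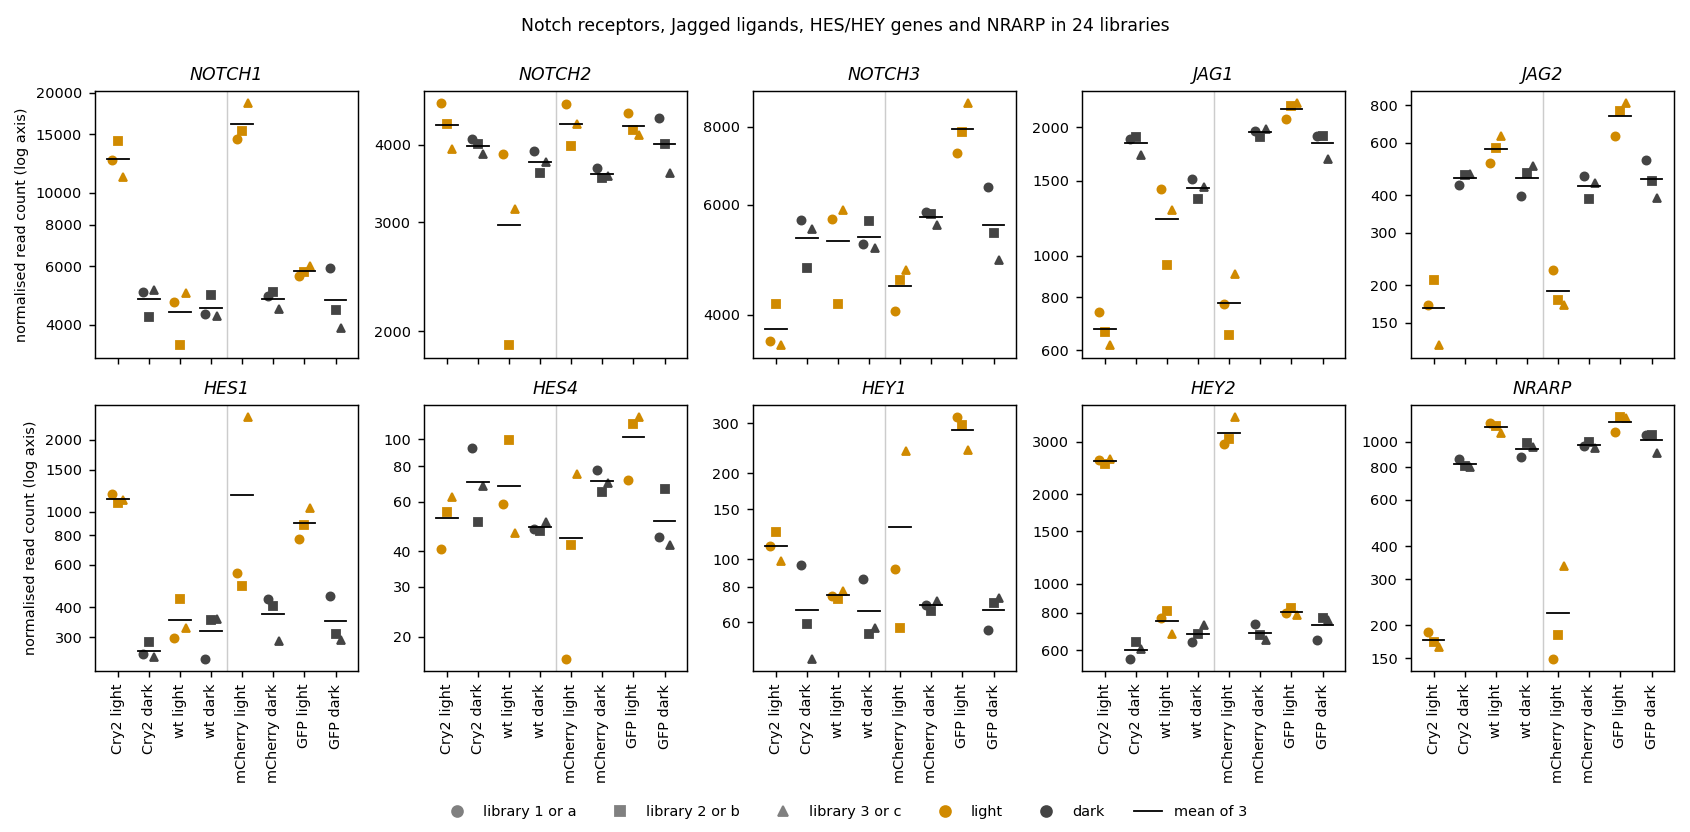
Normalised read count (log axis) of the 10 genes in each of 24 libraries, with 1 panel per gene, groups along the horizontal axis, 1 point per library and a bar for the mean of 3. NOTCH1 and HEY2 are high and JAG1, JAG2 and NRARP low in Cry2 light and mCherry light, and HES1 is high in Cry2 light. HEY1 is highest in GFP light, and library c of mCherry light is far above the other 2 in HES1 and HEY1.

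NOTCH1 (ENSG00000148400; GRCh38 chromosome 9, 136494433 to 136545786, minus strand), the receptor with the widest role in the embryo, had 12533, 14298 and 11178 normalised counts in Cry2 light, against 5009.7, 4217 and 5100.2 in Cry2 dark. It had 14523.5, 15332 and 18615 in mCherry light, against 4876, 5031 and 4448 in mCherry dark. Every illuminated engineered library was above every other library of the series, the highest of which had 6019.9. The log2 change was 1.41 ± 0.12 in Cry2 cells (adjusted p = 1.09e-07) and 1.75 ± 0.13 in mCherry cells (adjusted p = 2.05e-08). NOTCH2 (ENSG00000134250; chromosome 1, 119911553 to 120069626, minus strand), the receptor whose reads are uncertain because near-identical partial copies lie on the same chromosome, had 4670.4, 4331 and 3932 in Cry2 light and 4081, 4012 and 3863.5 in Cry2 dark. These groups overlapped, and the log2 difference of 0.11 ± 0.17 did not pass the test (adjusted p = 0.614, interval -0.26 to 0.48). In co-culture its 3 mCherry light libraries (4659, 3977 and 4319) lay above those of mCherry dark (3675, 3531 and 3566), by 0.26 ± 0.09 (adjusted p = 0.0161, and 0.0525 without mCherry dark b). NOTCH2 was thus the steadiest of the 3 receptors, with group means between 2971 and 4318.5.

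NOTCH3 (ENSG00000074181; chromosome 19, 15159038 to 15200981, minus strand), a receptor best known from vascular smooth muscle, went the opposite way to NOTCH1. It had 3631, 4166 and 3572 in Cry2 light, against 5668, 4760.3 and 5487 in Cry2 dark. In co-culture it had 4052, 4555 and 4718 in mCherry light, against 5834, 5796 and 5579 in mCherry dark. No illuminated library reached the lowest dark library in either culture, and the log2 change was -0.48 ± 0.11 (adjusted p = 0.00172) in Cry2 cells and -0.37 ± 0.10 (adjusted p = 0.00541) in mCherry cells. Per kilobase of exon, NOTCH1 and NOTCH3 changed places: Cry2 light had 1221 ± 151 of NOTCH1 and 403 ± 34.8 of NOTCH3 (SD, n = 3), whereas Cry2 dark had 460.2 ± 46.8 and 565 ± 51.1.

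Both Jagged ligands fell under light in engineered cells. JAG1 (ENSG00000101384; chromosome 20, 10637684 to 10673999, minus strand), which activates Notch in neighbouring cells, had 739, 662 and 616 in Cry2 light, against 1881, 1900.2 and 1725 in Cry2 dark. In mCherry light it had 772, 651 and 906, against 1958, 1901 and 1980.1 in mCherry dark. The groups were far apart in both cultures, with log2 changes of -1.45 ± 0.12 (adjusted p = 6.37e-08) and -1.34 ± 0.11 (adjusted p = 4.86e-08). JAG2 (ENSG00000184916; chromosome 14, 105140981 to 105168824, minus strand), the related ligand, had 172, 208 and 126 in Cry2 light, against 432, 467 and 470.3 in Cry2 dark. It had 225, 179 and 172 in mCherry light, against 464, 388 and 438 in mCherry dark. Again no illuminated library reached a dark one, and the log2 change was -1.46 ± 0.16 (adjusted p = 1.37e-06) in Cry2 cells and -1.17 ± 0.15 (adjusted p = 9.75e-06) in mCherry cells. Exons of JAG2 share 469 bases (7.3%) with AL512356.1 on the same strand, and those of JAG1 share 79 bases (0.8%) with the antisense gene AL050403.2. The sources used here do not say how reads in these stretches were counted.

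HEY2 (ENSG00000135547; chromosome 6, 125747664 to 125761269, plus strand), a repressor known from heart and vessel development, had 2612, 2525 and 2622 in Cry2 light, against 560.1, 636 and 604 in Cry2 dark. In co-culture it had 2943, 3070.5 and 3642 in mCherry light, against 734, 676 and 649.5 in mCherry dark. The lowest of the 6 illuminated engineered libraries had 2525, and the highest of the other 18 had 828. Its log2 change was 2.11 ± 0.09 (adjusted p = 1.39e-11) in Cry2 cells and 2.22 ± 0.10 (adjusted p = 8.6e-11) in mCherry cells.

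HES1 (ENSG00000114315; chromosome 3, 194136145 to 194138732, plus strand), a repressor that oscillates in several progenitor cells, had 1189.8, 1084 and 1122 in Cry2 light, against 256, 286 and 247 in Cry2 dark. That is 4.31-fold higher, by 2.10 ± 0.16 on the log2 scale (adjusted p = 1.81e-08). In mCherry light it had 557, 489 and 2491, against 433, 403 and 289 in mCherry dark. Libraries a and b stood only just above the dark libraries and library c far above them, so that the mean of 1179 ± 1137 (SD, n = 3) describes none of the 3. The log2 change was 1.25 ± 0.44 (adjusted p = 0.0242), and 0.50 (adjusted p = 0.0493) without library c. The call was lost without mCherry dark c (adjusted p = 0.089), in limma without a trend (0.0682) and when only these 2 groups were fitted (0.0684). The change in mCherry cells was smaller than in Cry2 cells by 0.86 ± 0.50, which did not pass the test (adjusted p = 0.964). Without library c the difference was -1.61 and passed it (adjusted p = 0.00933). Library c was also the highest of its group in NOTCH1, NOTCH3, JAG1, HES4, HEY1, HEY2 and NRARP, and had 0.849 times the mean of the other 2 in JAG2.

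HEY1 (ENSG00000164683; chromosome 8, 79764010 to 79767863, minus strand), the close relative of HEY2, was a weakly expressed gene here. It had 111, 125 and 98.5 in Cry2 light, against 95.3, 59.4 and 44.6 in Cry2 dark. The groups did not overlap, but by a narrow margin, and the log2 change of 0.80 ± 0.27 (adjusted p = 0.0193) lost its call without Cry2 light 2 (0.0591), Cry2 dark 2 (0.0534) or Cry2 dark 3 (0.101). In mCherry light HEY1 had 92.1, 57.4 and 241, against 69.3, 66.0 and 71.2 in mCherry dark. These groups overlapped, and the log2 difference of 0.65 ± 0.37 did not pass (adjusted p = 0.148). It was 0.08 without mCherry light c (adjusted p = 0.806) and 1.10 without mCherry light b (adjusted p = 0.00893). In DESeq2 on the recovered reads it was 0.89 and passed (adjusted p = 0.023). HES4 (ENSG00000188290; chromosome 1, 998962 to 1000172, minus strand), a HES1-related gene with no mouse counterpart, had 40.7, 55.1 and 62.1 in Cry2 light and 92.7, 50.9 and 68.5 in Cry2 dark. In mCherry light it had 16.7, 42.0 and 75.2, against 77.9, 65.1 and 69.6 in mCherry dark. Both pairs of groups overlapped and neither difference passed (adjusted p = 0.284 and 0.0822), although without mCherry light c the second was -1.38 and passed (adjusted p = 0.00433).

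NRARP (ENSG00000198435; chromosome 9, 137300482 to 137302251, minus strand) is a direct Notch target in other vertebrates and a feedback inhibitor of the pathway, yet it did not go with HES1 and HEY2. It had 189, 173 and 166 in Cry2 light, against 862, 806 and 798 in Cry2 dark. In co-culture it had 149, 184 and 336 in mCherry light, against 965, 994.5 and 941 in mCherry dark. The highest of the 6 illuminated engineered libraries had 336, and the lowest of the other 18 had 798. The log2 change was -2.22 ± 0.09 (adjusted p = 1.12e-11) in Cry2 cells and -2.20 ± 0.21 (adjusted p = 3.48e-07) in mCherry cells, the largest fall among the 10 genes in both cultures. Thus of the 5 genes known as Notch targets, HES1 and HEY2 rose in both cultures, HEY1 rose in monoculture, NRARP fell in both and HES4 was not called in either. The calls of HES1 in co-culture and of HEY1 in monoculture did not hold in all settings.

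**Figure D2:**
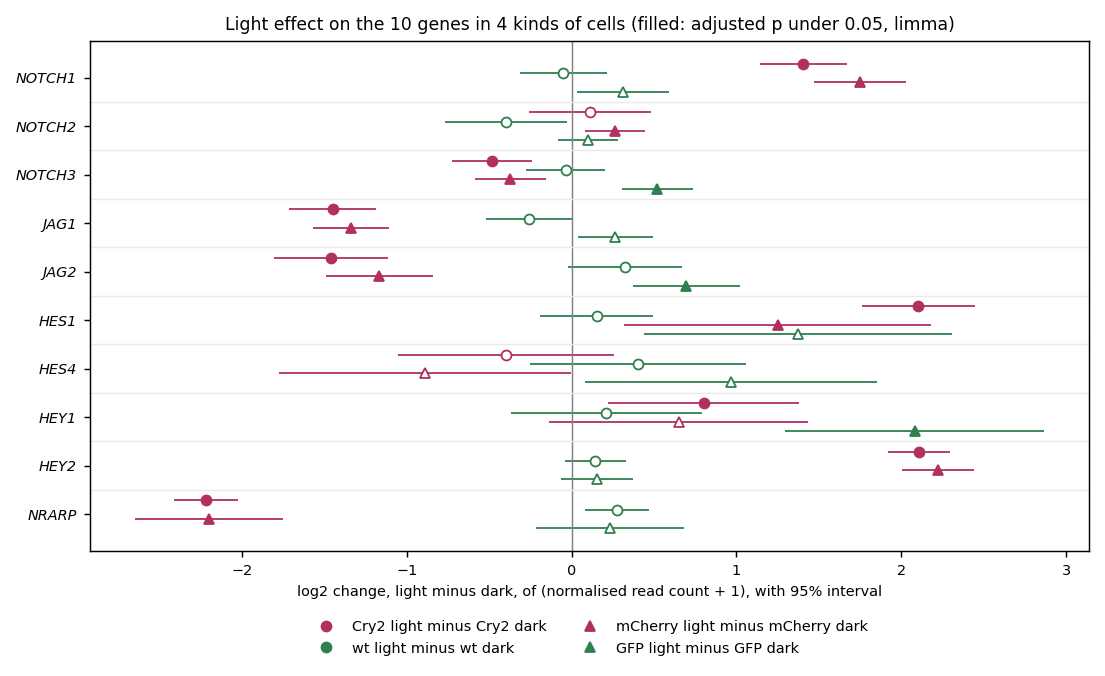
Log2 change, light minus dark, of the normalised count plus 1 for the 10 genes in Cry2, wt, mCherry and GFP cells, with 95% intervals from limma and filled symbols for an adjusted p under 0.05. Cry2 and mCherry lie together for most genes. The wt points lie between -0.40 (NOTCH2) and 0.40 (HES4) and none is filled. GFP lies above 0 in all 10, from 0.10 (NOTCH2) to 2.08 (HEY1), and close to wt in HEY2 and NRARP.

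Light alone left the 10 genes without a call in wild-type monocultures. None of the 10 passed limma's test in wt light against wt dark, where 0.072% of all genes did, and none passed with edgeR or DESeq2 on the recovered reads. At an unadjusted p under 0.05 there were 2, NOTCH2 and NRARP, beside 2559 of all 19444 genes. NRARP had 1177, 1141 and 1081 in wt light, against 872, 983 and 956 in wt dark, a log2 difference of 0.27 ± 0.09 (adjusted p = 0.256) between groups that did not overlap. NOTCH2 had 3873, 1895 and 3145 in wt light, against 3908, 3597 and 3757 in wt dark, and its difference of -0.40 ± 0.17 (adjusted p = 0.355) was -0.10 without wt light 2. That library was also the lowest of its group in NOTCH1, NOTCH3 and JAG1. JAG2 had 514, 575 and 631 in wt light, against 399, 475.5 and 502 in wt dark, groups that did not overlap (adjusted p = 0.405). HES1 had 297, 432 and 328.5 in wt light, against 243.5, 353.5 and 356 in wt dark, which did (adjusted p = 0.701).

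The light effect in Cry2 cells was set directly against that in wt cells. Of the 10 genes 7 differed, against 47.8% of all genes. The light effect was larger in Cry2 cells by 1.46 ± 0.18 on the log2 scale for NOTCH1, 1.95 ± 0.23 for HES1 and 1.96 ± 0.12 for HEY2. It was lower by 0.45 ± 0.16 for NOTCH3, whose call was lost without most single libraries, and by 1.19 to 2.49 for JAG1, JAG2 and NRARP. NOTCH2, HES4 and HEY1 did not pass.

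In wild-type cells that had grown beside illuminated engineered cells, the direction of several of these genes was another. HEY1 was 4.28-fold higher in GFP light than in GFP dark, NOTCH3 1.43-fold and JAG2 1.62-fold higher, and these 3 passed the test where 4.6% of all genes did, 2.39% being higher. All 10 log2 differences were above 0, with a median of 0.42. Over all 19436 genes 9381 differences were above 0 and the median was -0.01. In 8 of the 10 genes the 3 libraries of GFP light lay above all 3 of GFP dark. Over all genes the groups did not overlap in 24.8%, a share that counts both directions. All 10 comparisons share the same 6 libraries.

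HEY1 had 316.5, 296 and 242.5 in GFP light, against 56.6, 70.0 and 73.0 in GFP dark. These 3 were the highest levels of HEY1 in the series, the lowest of them just above mCherry light c. The log2 change was 2.08 ± 0.37 (adjusted p = 0.00349, at most 0.0228 in the alternatives tried). NOTCH3 had 7259, 7857 and 8728 in GFP light, against 6399, 5402 and 4895 in GFP dark, a log2 change of 0.52 ± 0.10 (adjusted p = 0.00728). JAG2 had 632, 765 and 812 in GFP light, against 526, 447 and 392 in GFP dark, a change of 0.70 ± 0.15 (adjusted p = 0.0153). The call of NOTCH3 held without each single library, while that of JAG2 was lost without GFP light b, GFP light c, GFP dark b or GFP dark c (adjusted p between 0.0643 and 0.0921).

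HES1 had 773, 879.7 and 1036 in GFP light, against 446, 309.8 and 291 in GFP dark, 2.57-fold higher with groups well apart. The adjusted p of its log2 difference of 1.37 ± 0.44 was 0.1, in a fit whose spread also holds the 3 unequal libraries of mCherry light. When only the GFP groups were fitted, it was 3.47e-05, and HES4 passed too (0.0379). HES4 had 71.4, 113 and 119.9 in GFP light, against 45.1, 66.4 and 42.2 in GFP dark, a difference of 0.96 ± 0.41 (adjusted p = 0.255). JAG1 had 2096, 2241 and 2277 in GFP light, against 1912, 1911 and 1684 in GFP dark, and did not pass (0.27 ± 0.11, adjusted p = 0.216) although the groups did not overlap. NOTCH1 had 5622, 5771 and 6019.9 in GFP light, against 5931, 4431 and 3897 in GFP dark. Its groups overlapped through GFP dark a, and its difference of 0.31 ± 0.13 (adjusted p = 0.239) was 0.48 without that library (adjusted p = 0.03). HEY2 had 801, 828 and 789.5 in GFP light and 650.5, 769.5 and 759 in GFP dark, with a difference of 0.15 ± 0.10 (adjusted p = 0.509, interval -0.07 to 0.37). NRARP differed by 0.23 ± 0.21 (adjusted p = 0.664) and NOTCH2 by 0.10 ± 0.09 (adjusted p = 0.635).

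Of the 6 streak and mesoderm markers, 3 moved with these results. Their summed level was 653.5 to 711.1 in GFP light, against 205.6 to 248.7 in GFP dark. EOMES, TBXT and MIXL1 rose, while TBX6 (means 146.5 and 158.4), MESP1 (8.62 and 2.68) and MSGN1 did not pass the test between GFP light and GFP dark. EOMES had 252.6, 271.3 and 207.5 in GFP light, against 7.1, 7.2 and 3.6 in GFP dark. MSGN1, which had 10002 to 12317.5 in mCherry light, had at most 2.7 in GFP light. The part of these cells in the results on HEY1, NOTCH3 and JAG2 was not tested.

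Set against the light effect in mCherry cells of the same co-cultures, 8 of the 10 genes differed, where 40.5% of all genes did. The effect in mCherry cells was higher by 1.44 ± 0.18 for NOTCH1 and 2.07 ± 0.15 for HEY2. It was lower by 0.89 ± 0.14 for NOTCH3, 1.60 ± 0.15 for JAG1, 1.86 ± 0.21 for JAG2 and 2.43 ± 0.30 for NRARP. HES4 was lower by 1.85 ± 0.59 (adjusted p = 0.0198) and HEY1 by 1.43 ± 0.52 (adjusted p = 0.0389), the call of HEY1 being lost in edgeR (0.0571) and without most single libraries. For HES1 the difference was -0.13 ± 0.62 (adjusted p = 0.896), and -0.88 without mCherry light c (adjusted p = 0.0174). NOTCH3, JAG1 and JAG2 were thus lower than in the dark in illuminated engineered cells, and NOTCH3 and JAG2 higher in their wild-type neighbours.

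The light effect in GFP cells was also set against that in wt monocultures, in a fit of all 24 libraries. HEY1 differed by 1.87 ± 0.47 (adjusted p = 0.0339), and was the single call among the 10 where 2.3% of all genes passed. The adjusted p was above 0.05 for HEY1 without most single libraries and in limma without a trend. NOTCH3 had a difference of 0.56 ± 0.16 (adjusted p = 0.0692), JAG1 of 0.52 ± 0.17 (0.125) and HES1 of 1.22 ± 0.50 (0.265). For JAG2, which was called in GFP light against GFP dark, the difference was 0.37 ± 0.23 (adjusted p = 0.515). Culture format also goes with sorting, which monocultures did not undergo, and with when the samples were deposited. The format, the sort and the time of deposit cannot be told apart.

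None of the 10 genes was called in the comparisons of dark groups that follow, save JAG1 when only the 2 groups compared were fitted. Means still differed in some genes. HES4 was 1.45-fold higher in Cry2 dark than in wt dark, with overlap, and HES1 1.43-fold higher in mCherry dark than in Cry2 dark, without overlap. Over the 12 dark libraries NOTCH1 lay between 3897 and 5931, HES1 between 243.5 and 446, HEY2 between 560.1 and 769.5 and NRARP between 798 and 1061. None of the 10 passed in Cry2 dark against wt dark (3.6% of all genes did), and none in edgeR or DESeq2. At an unadjusted p under 0.05 were 3317 of all 19444 genes and 1 of the 10. That gene was JAG1, with 1881, 1900.2 and 1725 in Cry2 dark, against 1513.5, 1359 and 1447 in wt dark, a difference of 0.35 ± 0.12 (adjusted p = 0.144). Fitted in these 2 groups alone it passed (adjusted p = 0.000243). In co-culture the same comparison, mCherry dark against GFP dark, gave none of 10 (0.797% of all genes), and none in edgeR or DESeq2. At an unadjusted p under 0.05 were 1098 of all 19436 genes and 0 of the 10, and JAG1 differed by 0.09 ± 0.11 (adjusted p = 1.0). GFP dark was above wt dark in JAG1 by 0.35 ± 0.12 (adjusted p = 0.488), with groups that did not overlap. Between the 2 culture formats in the dark, none of the 10 passed, in engineered cells (0.0148% of all genes) or in wild-type cells (0.0295%), nor did any in edgeR or DESeq2. At an unadjusted p under 0.05 were 0 of the 10 and 1076 of all 20322 genes in engineered cells. In wild-type cells there were 1 of the 10 and 1578 of all 20322.

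The light effects of mCherry and Cry2 cells were compared in the fit of 24 libraries, and none of the 10 differed in limma (0.064% of all genes did), in edgeR or in DESeq2. None of the 10 had an unadjusted p under 0.05 in limma, which 1018 of all 20322 genes had. The intervals show how far this goes: the difference, mCherry minus Cry2, was -0.16 to 0.39 for HEY2, -0.24 to 0.46 for JAG1, -0.05 to 0.74 for NOTCH1 and -1.89 to 0.18 for HES1.

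Among the 60 other Notch pathway genes listed by role, all were in the table and 59 were tested. In Cry2 light against Cry2 dark 26 rose and 14 fell, and in mCherry light against mCherry dark 27 rose and 14 fell. Their median log2 change was 0.18 in Cry2 and 0.29 in mCherry cells, against -0.01 over all genes. These shares are read against the 58.4% and 55.9% of all genes called. Among the ligands, DLL1 and DLL3 went opposite to JAG1 and JAG2, whereas DLL4, a low-level Delta-like ligand with a mean of 2.89 in Cry2 light against 19.2 in Cry2 dark, fell as they did. DLL1, a Delta ligand of the presomitic mesoderm, had a mean of 5660 in Cry2 light, against 258 in Cry2 dark (log2 change 4.45 ± 0.14, adjusted p = 5.46e-13). DLL3, a Delta relative that acts on Notch within its own cell, had 28560 in Cry2 light, against 809 in Cry2 dark (5.14 ± 0.11, adjusted p = 7.86e-15). In mCherry light DLL1 was 24.9-fold and DLL3 53.8-fold higher than in mCherry dark, and DNER, a Delta-like protein of neurons, was 23.6-fold lower in Cry2 light than in Cry2 dark.

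Per kilobase of exon, the sum of JAG1 and JAG2 was 98.7 ± 11.1 in Cry2 light, against 269 ± 9.19 in Cry2 dark (SD, n = 3). The sum of DLL1 and DLL3 was 12664 ± 667 in Cry2 light, against 389 ± 31.1 in Cry2 dark. In Cry2 dark the Delta sum (353.7 to 412.5) lay above the Jagged sum (259.0 to 277.3), and in Cry2 light the Delta sum was far the greater. Illuminated neighbours showed the opposite pair of shifts at a smaller scale: the Jagged sum was 352 ± 24.9 in GFP light, against 268.5 ± 23.5 in GFP dark, and the Delta sum 127 ± 3.57 in GFP light, against 309.6 ± 21.5 in GFP dark. DLL1 fell by 1.30 ± 0.14 on the log2 scale in GFP light (adjusted p = 4.33e-05) and DLL3 by 1.27 ± 0.15 (adjusted p = 9.08e-05). In the mCherry light cells of the same cultures DLL3 had 28857 to 44191. The sum of the 3 receptors was 1881 ± 194 in Cry2 light, against 1262 ± 96.2 in Cry2 dark, and 1661 ± 88.0 in GFP light, against 1289 ± 206 in GFP dark.

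**Figure D3:**
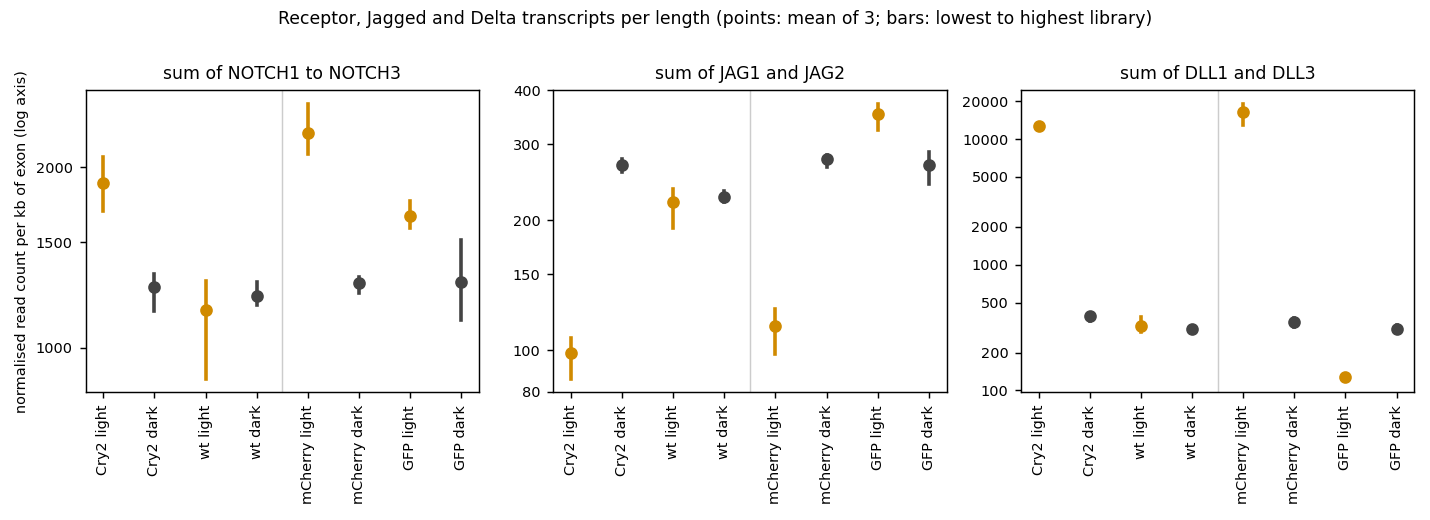
Sum of the normalised counts per kilobase of exon (log axis) of NOTCH1 to NOTCH3, of JAG1 and JAG2 and of DLL1 and DLL3 in the 8 groups, with points for the mean of 3 libraries and bars from the lowest to the highest library. The Jagged sum is lowest in Cry2 light (98.7) and mCherry light (113.5) and highest in GFP light (352), while the Delta sum is highest in mCherry light (16436) and Cry2 light (12664) and lowest in GFP light (127).

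Other HES genes did not form a block with HES1. HES7, the clock repressor of the presomitic mesoderm, had 4220 in Cry2 light, against 15.9 in Cry2 dark, and HES6, an antagonist of HES1, was 4.69-fold higher. HES3 was 35.7-fold lower, and HES5, a Notch target of neural progenitors, had no reads in Cry2 light or Cry2 dark and at most 9.52 in any library. LFNG, the fringe enzyme that tunes receptors toward Delta ligands and cycles in the segmentation clock, was 13.4-fold higher in Cry2 light than in Cry2 dark. In mCherry light its mean was 22.1-fold higher than in mCherry dark, with 10628, 15365 and 26915 in libraries a, b and c. MFNG was 2.51-fold higher in Cry2 light. The counts by role that follow for Cry2 cells stand beside 28.1% of all genes higher and 30.4% lower, and nothing particular to a role is read from them. Of 9 cleavage genes 4 rose and 2 fell: NCSTN, a subunit of gamma-secretase, rose by 0.86 ± 0.05 and the receptor protease FURIN by 0.76 ± 0.08, while the subunits APH1B and PSEN2 fell by 1.61 ± 0.09 and 0.94 ± 0.10.

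RBPJ, the DNA-binding partner of cleaved Notch, fell to a mean of 4526 in Cry2 light, against 7138 in Cry2 dark (log2 change -0.66 ± 0.08, adjusted p = 2.38e-06). The other nuclear partners went both ways or did not pass, with 5 of 9 higher and 1 lower. MAML3, a coactivator, rose by 0.80 ± 0.12 and the acetyltransferase gene KAT2B by 0.95 ± 0.39. Among 10 corepressors 6 rose and 2 fell. TLE3 rose by 1.34 ± 0.06 and HDAC1 by 0.44 ± 0.05, while TLE2, with a mean of 6.37 in Cry2 light against 424 in Cry2 dark, and TLE1, 5.40-fold lower, fell. Among 14 genes of trafficking and turnover 2 rose and 6 fell. NUMBL rose by 0.43 ± 0.09 and the ubiquitin ligase gene ITCH by 0.35 ± 0.13, and the Deltex genes DTX1 and DTX3L were 4.77-fold and 4.12-fold lower.

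**Figure D4:**
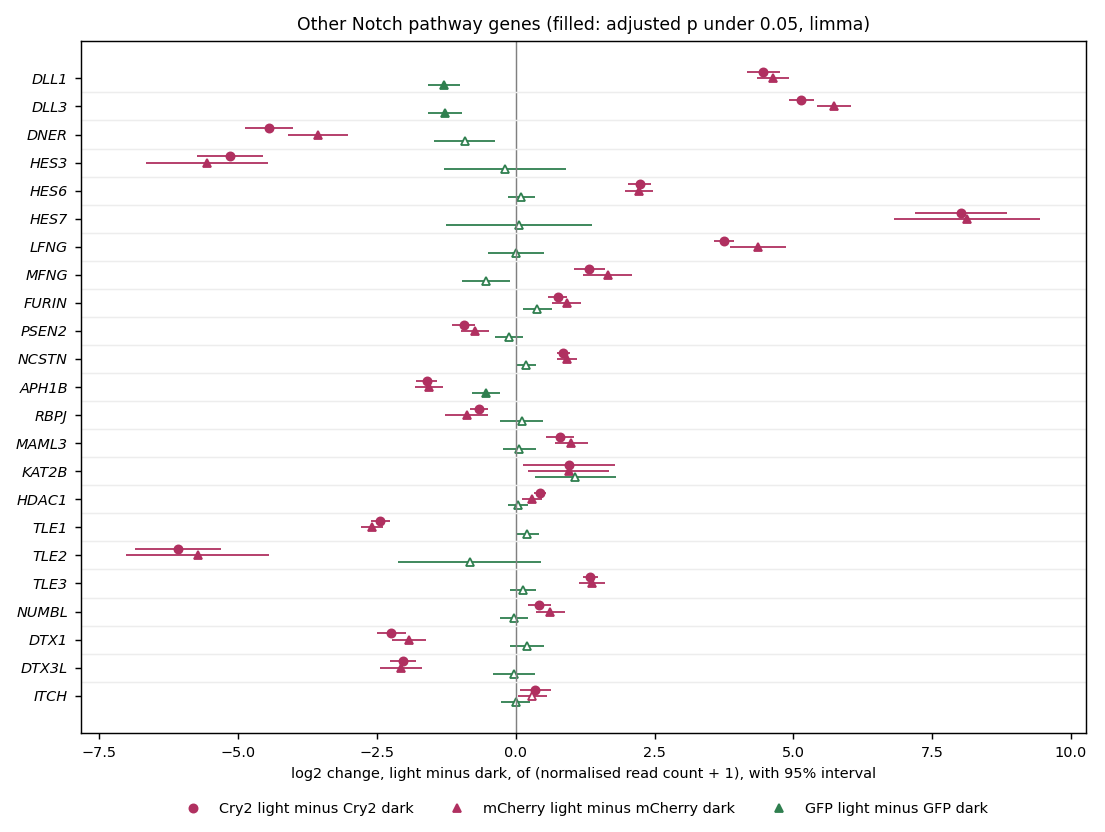
Log2 change, light minus dark, of the normalised count plus 1 for 23 other Notch pathway genes in Cry2, mCherry and GFP cells, with 95% intervals from limma and filled symbols for an adjusted p under 0.05. DLL1, DLL3, HES7 and LFNG lie far to the right in Cry2 and mCherry, and in GFP cells DLL1, DLL3 and APH1B are the only filled symbols, all to the left.

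In GFP light against GFP dark 5 of the 59 passed, where 4.6% of all genes did. MAML2, a coactivator, rose by 0.94 ± 0.15 (adjusted p = 0.00198). DLL1, DLL3 and APH1B fell, and DLL4, at a mean of 2.85 in GFP light against 20.1 in GFP dark, fell as well. In wt light against wt dark none of the 59 passed limma's test, with 15 at an unadjusted p under 0.05, as had 2559 of all 19444 genes.

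Across the 8 group means, the profile of HEY2 was nearly that of NOTCH1 (r = 0.99) and the reverse of that of NRARP (r = -0.95), and JAG2 went with NRARP (r = 0.97). These are descriptions over 8 points that share libraries and in which the illuminated engineered groups stand far from the others. Among 14436 genes with a mean of at least 50, the gene most like NOTCH1 was MBTPS1 (r = 0.998), that most like HEY2 was PPP1R9B (r = 0.999) and that most like NRARP was ARC (r = 0.999). Such likeness was common for these 3 genes: between 1746 and 1789 genes had an r above 0.95 with each. It was rarer for others. HEY1 was most like ID4 (r = 0.992) with 8 genes above 0.95, NOTCH3 most like L1CAM (r = 0.991) with 15, and HES1 most like SALL3 (r = 0.983) with 49. The closest profiles to the others were PIM1 for JAG1 (r = 0.994), POU5F1P3 for JAG2 (r = 0.993), REL for NOTCH2 (r = 0.980) and NKX1-2 for HES4 (r = 0.949).

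In order of mean level, NOTCH1 ran mCherry light, Cry2 light, GFP light and then the 5 other groups, which overlapped each other. Its GFP light range also overlapped that of GFP dark, through GFP dark a (5931.4). HEY2 also began with mCherry light, Cry2 light and GFP light, the last of which overlapped wt light. HES1 ran mCherry light and Cry2 light, which overlapped, then GFP light, which was apart from Cry2 light and from all lower groups but lay within the wide range of mCherry light. HEY1 had GFP light at the top, apart from mCherry light by a narrow margin (242.5 in GFP light c against 240.8 in mCherry light c). NOTCH3, JAG1, JAG2, HES4 and NRARP also had GFP light at the top, apart from the next group except in HES4 and NRARP. In JAG2 the margin was narrow too (631.6 in GFP light a against 630.6 in wt light 3). NRARP ended with mCherry light and Cry2 light at the bottom, overlapping each other and apart from the 6 other groups.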

How the data were processed

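RNA was sequenced from 24 libraries (TruSeq Stranded mRNA kit, per the labels' protocols), each made from several pooled wells that the labels call 1 biological replicate, so p-values measure the spread between such replicates. Per the submitters' processing notes the tools were STAR, Bowtie2, HTSeq, DESeq, FastQC and cutadapt. Their versions, the strand setting and filters are not given in the sources used here. The build is hg19 in the header of the authors' sample table and GRCh38 in the notes, so gene coordinates here come from GENCODE 29 on GRCh38 by Ensembl ID. The authors deposited 1 table of 28301 rows: 28297 Ensembl genes and 4 construct features, which were left out of all tests. The values the authors deposited are a normalised signal, read counts divided by 1 size factor per library. Whole reads were recovered from the steps of these values, 100.0% of which came out whole within 0.01. The authors' deposited sample table gave RNA integrity scores, GC content as a percent and total read counts, used for monocultures only, since its co-culture rows could not be tied to single samples.

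Groups of monocultures follow the sample titles, with which the construct reads go and against which the genotype tags of those samples stand. Co-culture columns name a group but no replicate number, and their libraries are called a, b and c.

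Values were compared as log2(value + 1) with limma 3.58.1 (trend, 1 mean per group, R 4.3.3) in 12 monoculture, 12 co-culture or all 24 libraries. Genes with at least 10 in at least 3 libraries were tested (19444, 19436 and 20322), p-values were adjusted by Benjamini and Hochberg over all of them, and an adjusted p under 0.05 is a call. All 10 genes passed this filter in each fit. edgeR 4.0.16 (quasi-likelihood, TMM) and DESeq2 1.42.0 ran on the recovered reads as alternatives. The scripts were tested on simulated data. Tables and figures were made with Python 3.11.15, pandas 2.3.3, numpy 2.4.6 and matplotlib 3.10.9. Motifs were searched in RefSeq promoters of GRCh38.p14.

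All 10 genes were described in every group. Of the other pathway genes, those with the 2 largest rises and falls per role among calls in Cry2 light against Cry2 dark, and a mean of 50 or more in whichever group was higher, were named, and DLL1, DLL3, HES5, HES7, LFNG and RBPJ in any case. DLL4 and MAML2 were named after their values were seen. The members, lists and tests were chosen with earlier results of these data known.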

Additional observations from a re-analysis of the deposited data

Results flagged for a closer look

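These results were picked because the light effect itself differed between kinds of cells, by a test of the difference in limma with an adjusted p under 0.05. Values are differences of log2 changes.

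The light effect in Cry2 cells minus that in wt cells was 1.46 for NOTCH1, 1.95 for HES1 and 1.96 for HEY2, and it was -0.45 for NOTCH3, -1.19 for JAG1, -1.78 for JAG2 and -2.49 for NRARP. The light effect in mCherry cells minus that in GFP cells was 1.44 for NOTCH1 and 2.07 for HEY2, and it was -0.89 for NOTCH3, -1.60 for JAG1, -1.86 for JAG2, -1.85 for HES4, -1.43 for HEY1 and -2.43 for NRARP. The light effect in GFP cells minus that in wt cells was 1.87 for HEY1.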

How the results depend on the processing

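Of 2140 values of single genes under other settings, 2077 kept their side of the threshold, 45 lost the call and 18 gained it. No called value changed sign, while some values that were not called did. Calls among the 10 genes numbered 7 to 8 in Cry2 light against dark, 0 in wt, 6 to 7 in Cry2 against wt light effects, 7 to 9 in mCherry light against dark and 7 to 9 in mCherry against GFP light effects. For GFP light against dark there were 5 instead of 3 when only its groups were fitted, and 2 to 4 without single libraries. For the GFP minus wt light effects there was 1, and there were 2 with DESeq2, 0 without a trend, 2 when only its groups were fitted, 0 to 3 without single libraries, and 0 without the libraries of GC content under 40% or RNA integrity under 8, a setting chosen after seeing the data. The mCherry minus Cry2 light effects gave 0 to 1 without single libraries (1 without mCherry light c). Cry2 dark against wt dark and GFP dark against wt dark each gave 1 in place of 0 when only their groups were fitted (JAG1, adjusted p = 0.000243 and 0.00901). The cause of these changes was not tested. For the differences of light effects within a culture, fitting only the named groups equals the fit used, and it was not run there.

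Replicate numbers of the monocultures did not pair the libraries: 18 correlations of same-numbered deviations lay between -0.24 and 0.28, and in 0 of 6 pairs of groups were all above 0.1. With the replicate block the calls were 8 in Cry2 light against dark, 0 in wt, 0 between the dark groups and 7 between the light effects, as without it. No paired analysis was possible in co-cultures because their columns carry no numbers. HES4 and HEY1 had group means under 300 in every group, so counting error weighs on their values.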
